A study of Zea mays with 18 samples.

Results

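Gene expression was compared between maize kernels at a pair of immature stages in 2 inbred lines, JI63 and DAN3130, and the subject here was the difference between the lines in the change from day after pollination (DAP) 24 to DAP 35. For each locus this line difference was the JI63 change (DAP 35 minus DAP 24) minus the DAN3130 change, on log2(normalized count + 1). A positive value therefore means that the JI63 change was the higher one, and it can come from a rise in JI63, a fall in DAN3130 or both. The groups were JI63 on DAP 35, JI63 on DAP 24, DAN3130 on DAP 35 and DAN3130 on DAP 24, with 3 libraries each, so 12 of the 18 libraries of the series were used. The other 6 libraries, of mature JI63 and mature DAN3130 kernels, entered only as a later readout. Of 77704 assembled loci that are not intron entries, 27207 averaged more than 10 normalized counts in the 12 libraries and were tested. Both lines belong to the NSS subpopulation, were not treated, and were grown together in the field at Langfang, Hebei, in 1 summer. Kernels were sampled whole, so fewer cells of a type and less RNA per cell cannot be told apart. Each genotype is 1 inbred line, and all reads were placed on the B73 genome, so that a locus that differs from B73 in sequence and a locus with little RNA cannot be told apart either. The study's text gives 3 biological replicates for each stage and also says that RNA was pooled for sequencing, so the p-values measure the spread between these libraries, which may be technical.

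This window lies in the filling of the maize kernel, before it dries. The starchy endosperm makes starch and zein storage proteins from sugars and amino acids that enter through the basal endosperm transfer layer, while the embryo lays down oil, globulins and the late embryogenesis abundant (LEA) proteins and dehydrins that go with drying. Cells of the endosperm stop dividing early and then copy their DNA without division, whereas the embryo keeps dividing cells for longer. Folates, the vitamins the series was collected for, are assembled from a pterin, p-aminobenzoate and glutamate, and they carry the carbon units used in the synthesis of glycine, serine, methionine and thymidylate.

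The 12 libraries held 15496827 to 133264978 reads in loci. The first principal component, with 65.7% of the variance, separated JI63 from DAN3130, and the second, with 11.8%, separated DAP 35 from DAP 24 in both lines. Libraries are named here by the number in their label. Library 27 of JI63 on DAP 35 stood apart: 33.5% of its normalized count lay in its 100 highest loci, against 19.9% to 26% in the other 11 libraries, and its summed level of embryo markers was 3060680.0, against 1166500.0 and 1350390.0 in the other 2 libraries of its group. The residual standard deviation (SD) per library was 0.650 to 0.733 on the log2 scale in DAN3130 on DAP 35 and 0.666 in library 27, against 0.378 to 0.582 in the other 8.

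The lines differed in their stage change at 4480 loci, 16.5% of those tested (limma, Benjamini-Hochberg adjusted p under 0.05). The JI63 change was the higher one at 2154 of them (7.92%) and the lower one at 2326 (8.55%). For scale, 7532 loci (27.7%) changed with stage in JI63, 12% of the tested loci being higher on DAP 35 and 15.6% lower, and 6610 (24.3%) in DAN3130, 10.3% higher and 14% lower. The loci were sorted by which line's own change passed the same test, which is how the patterns below were chosen. In JI63 only, 720 loci (2.65%) were higher on DAP 35 than on DAP 24 and 1298 (4.77%) were lower. In DAN3130 only, 555 loci (2.04%) were higher and 959 (3.52%) were lower. At 463 loci the lines moved in opposite directions, 290 of them (1.07%) higher in JI63 and lower in DAN3130, and 173 (0.636%) lower in JI63 and higher in DAN3130. Both lines moved the same way by different amounts at 108 loci that were higher (0.397%) and 148 that were lower (0.544%), and neither line's change passed on its own at 229 (0.842%).

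**Figure D1:**
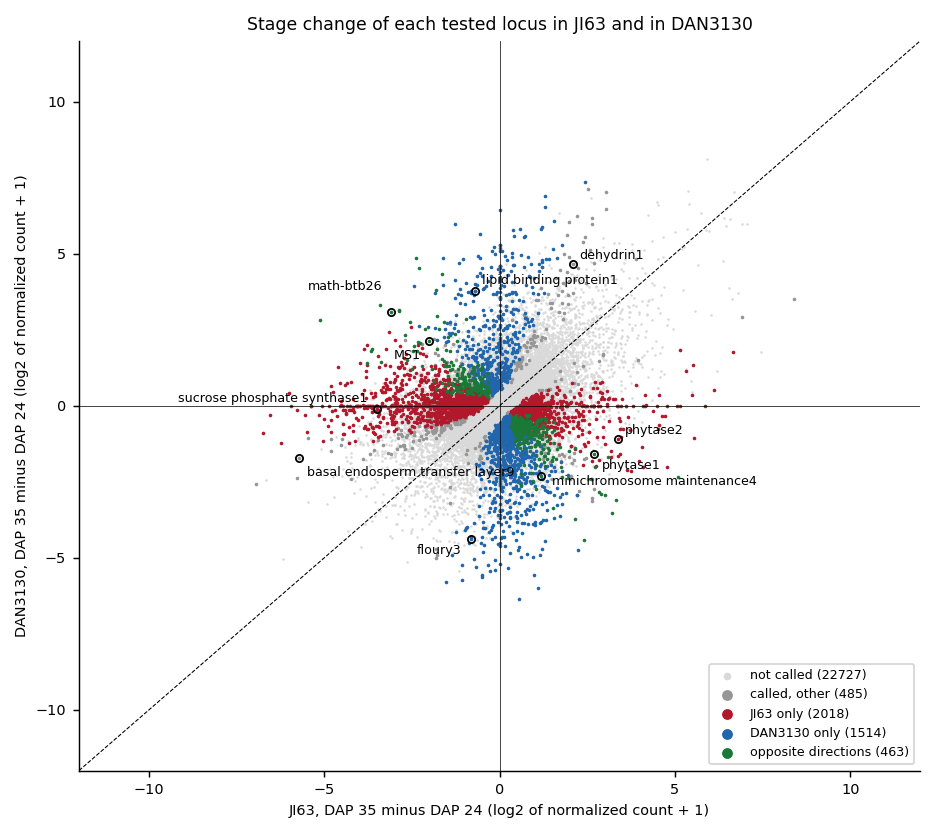
Stage change in JI63 (horizontal axis) and in DAN3130 (vertical axis), each as DAP 35 minus DAP 24 on log2(normalized count + 1), with 1 point per tested locus and colours for the patterns of the called loci. Loci that moved in opposite directions lie in the lower right (290 loci, JI63 higher) and the upper left (173 loci, JI63 lower), and the dashed diagonal marks equal changes in both lines.

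Missing the threshold in 1 line does not show that the locus stood still there. Of the 2018 JI63-only loci, 1626 had a DAN3130 change under 0.5 in size, and of the 1514 DAN3130-only loci, 1116 had a JI63 change under 0.5. The median line difference over all tested loci was 0.05, close to 0, and 3201 of the 4480 differed by at least 1 on the log2 scale, that is 2-fold. The called locus nearest the threshold had an adjusted p of 0.0499732 and a size of 0.57, and the nearest one outside had 0.0500387 and 0.65. The edgeR quasi-likelihood test on the recovered reads called 3962 loci. The count of 4480 fell to 2960 without DAN3130 DAP 24 library 8 and was 5960 without JI63 DAP 35 library 27. Without library 27 the JI63 change was the higher one at 2831 loci and the lower one at 3129. These were 1366 and 1736 without JI63 DAP 35 library 26, 1352 and 1608 without DAN3130 DAP 24 library 8, and 1339 and 1682 without library 10 of that group. The list counts given below for fits without a library are to be read beside these totals. The 1514 DAN3130-only loci became 918 without DAN3130 DAP 24 library 8 and 934 without library 10 of that group, and the 463 opposite ones became 245 and 253 without these, 305 without JI63 DAP 24 library 24, 271 without JI63 DAP 35 library 26 and 752 without library 27. When the 6 mature libraries shared the fit, 900 line differences were called, of which 53 were opposite.

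The 4480 loci also showed where the lines stood apart. At 1758 of them the lines differed on DAP 24 only, at 1322 on DAP 35 only, at 1314 on both days and at 86 on neither, all by limma with the same threshold. Over all 27207 tested loci these counts were 4873, 4031, 7819 and 10484. At 608 of the 1314 the order of the lines turned round between the days. Since these levels make up the line difference, they describe the called loci and do not test them. Loci with no B73 gene identifier made up 12.9% of the called loci and 17.8% of the tested ones. Among the patterns their share was highest in the DAN3130-only higher loci (24%) and was 4.1% in the opposite ones.

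The loci that moved in opposite directions with JI63 higher included genes of a phytase, a lectin, an aquaporin, DNA replication and benzoxazinoid synthesis. Phytases release phosphate from phytate, the phosphorus store of the seed. Phytase1 (Zm00001d041660, chr3:132281207-132282707 on the AGPv4 build, as all positions here) had normalized counts of 519.6, 1414 and 466 in JI63 on DAP 35, against 84.1, 121 and 120.4 on DAP 24, and 54.0, 106 and 84.2 in DAN3130 on DAP 35, against 226, 203 and 305 on DAP 24. Every JI63 library was higher on DAP 35 than on DAP 24 and every DAN3130 library was lower, with library 27 the highest of all. Genes named as the largest of a pattern were chosen for no overlap between the days in each called line. That separation of days was therefore fixed by the choice, here and in the other genes so named, and adds no support to their calls. For phytase1 the line difference was 4.31 ± 0.57 (SE) on the log2 scale (limma adjusted p = 0.00075), with a change of 2.70 in JI63 and -1.61 in DAN3130. Beta glucosidase aggregating factor1 (Zm00001d019312, chr7:27241847-27243532), a lectin that binds beta-glucosidases in maize, had 46.8, 82.2 and 91.8 in JI63 on DAP 35, against 2.16, 9.64 and 30.3 on DAP 24, and 63.9, 175 and 30.6 in DAN3130 on DAP 35, against 555, 452 and 527 on DAP 24. The JI63 counts were low on both days, and the DAN3130 counts on DAP 24 were the highest of the 4 groups. Its line difference was 5.66 ± 1.07 (limma adjusted p = 0.0049), with changes of 2.82 in JI63 and -2.84 in DAN3130.

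The locus Zm00001d019565 (chr7:43071903-43073370), named plasma membrane intrinsic protein2, an aquaporin, had 133, 300.3 and 187 in JI63 on DAP 35, against 79.7, 37.0 and 66.0 on DAP 24, and 187, 216 and 221 in DAN3130 on DAP 35, against 803, 664 and 1119 on DAP 24. On DAP 35 the lines' ranges overlapped, and on DAP 24 every DAN3130 library was above every JI63 library. For this aquaporin the line difference was 3.75 ± 0.48 (SE) on the log2 scale (limma adjusted p = 0.00067), with a change of 1.74 in JI63 and -2.01 in DAN3130. Another locus under the same name, Zm00001d005421, differed the other way, at -2.29, with a JI63 change of -1.56 and a DAN3130 change of 0.72 that did not pass. Minichromosome maintenance4 (Zm00001d044540, chr3:231327721-231332840), a subunit of the helicase that opens DNA for replication, had 719, 538 and 601 in JI63 on DAP 35, against 157, 317 and 399 on DAP 24, and 192, 271 and 272 in DAN3130 on DAP 35, against 1128, 1208 and 1325 on DAP 24. Benzoxazinone synthesis4 (Zm00001d048703, chr4:3614697-3616815), a cytochrome P450 of the pathway to the benzoxazinoid defence compounds, had 696, 805 and 548 in JI63 on DAP 35, against 163, 138 and 227 on DAP 24, and 206, 129 and 259.7 in DAN3130 on DAP 35, against 487, 523 and 600.3 on DAP 24. In both genes the higher line was DAN3130 on DAP 24 and JI63 on DAP 35, with no overlap on either day. Their line differences were 3.51 ± 0.40 and 3.45 ± 0.38 (limma adjusted p = 0.00043 and 0.00034).

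**Figure D2:**
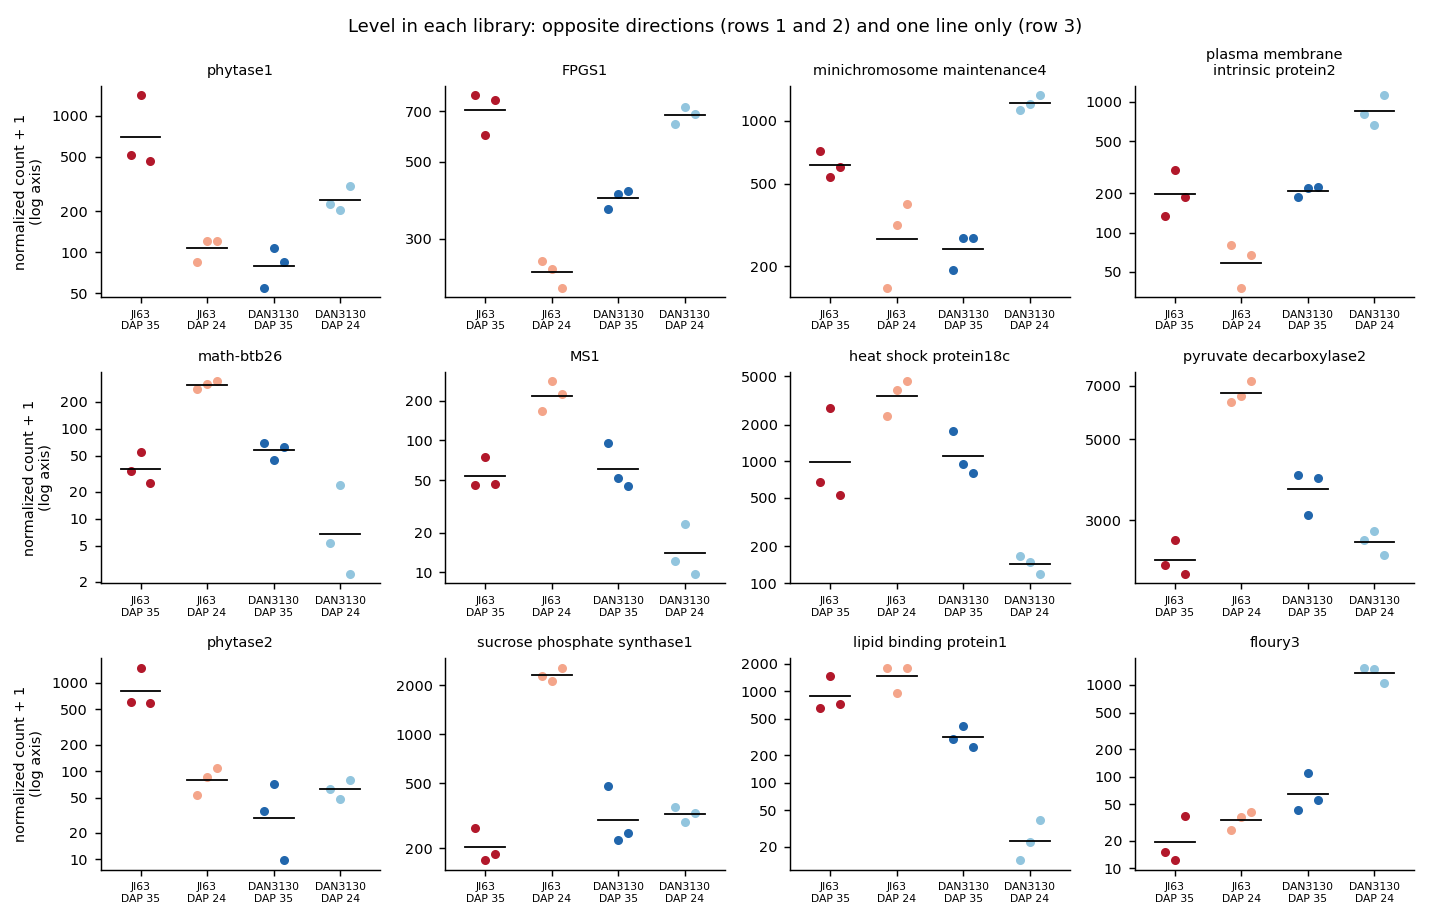
Normalized counts (logarithmic axis, count + 1) of 12 genes, with 1 point per library, JI63 left of DAN3130, DAP 35 left of DAP 24 in each line and a bar at each group's mean on the log scale. In phytase1 the JI63 points of DAP 35 are at 466 or more and the DAN3130 points of DAP 35 at 106 or less, and math-btb26 shows the other direction, with JI63 at 54.5 or less on DAP 35, against 274 or more on DAP 24.

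The opposite loci with JI63 lower included genes of ubiquitin ligase adaptors, nitrogen assimilation, cytokinin breakdown and transcription factors. MATH-BTB proteins bring substrates to cullin ubiquitin ligases. Math-btb26 (Zm00001d036647, chr6:96203963-96208954) had 32.8, 54.5 and 23.8 in JI63 on DAP 35, against 274, 312 and 333 on DAP 24, and 68.2, 44.3 and 61.8 in DAN3130 on DAP 35, against 4.45, 22.9 and 1.46 on DAP 24. JI63 was far above DAN3130 on DAP 24, whereas the ranges of the lines overlapped on DAP 35. For math-btb26 the line difference was -6.18 ± 0.95 (SE) on the log2 scale (limma adjusted p = 0.0017), with a change of -3.09 in JI63 and 3.09 in DAN3130. Math-btb9 (Zm00001d048843, chr4:6233384-6234460) had 27.8, 47.2 and 11.7 in JI63 on DAP 35, against 176, 106 and 261 on DAP 24, and 230.1, 103 and 203 in DAN3130 on DAP 35, against 40.8, 30.1 and 29.2 on DAP 24, and its line difference was -5.04 ± 0.74 (limma adjusted p = 0.0013). Glutamine synthetase6 (Zm00001d028260, chr1:28169146-28172050), an enzyme that fixes ammonium into glutamine, had 546, 906 and 617 in JI63 on DAP 35, against 2911, 3779 and 4405 on DAP 24, and 1680.3, 564 and 1155 in DAN3130 on DAP 35, against 241, 180.3 and 418 on DAP 24. As the choice of these genes required, every JI63 library was lower on DAP 35 than on DAP 24 and every DAN3130 library was higher. For glutamine synthetase6 the line difference was -4.40 ± 0.54 (SE) on the log2 scale (limma adjusted p = 0.00056), with a change of -2.44 in JI63 and 1.97 in DAN3130.

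Cytokinin oxidase 4 (Zm00001d043293, chr3:194806536-194810836), which breaks down cytokinins, had 245, 508 and 152 in JI63 on DAP 35, against 741, 651 and 1050.2 on DAP 24, and 317, 304 and 264 in DAN3130 on DAP 35, against 122, 136 and 99.3 on DAP 24. HSF-transcription factor 6 (Zm00001d016674, chr5:172180319-172183969), of the family that switches on heat shock genes, had 240.3, 301 and 201 in JI63 on DAP 35, against 552, 506 and 539.8 on DAP 24, and 339, 226 and 233 in DAN3130 on DAP 35, against 119, 72.3 and 133 on DAP 24. Both were higher in JI63 than in DAN3130 in every DAP 24 library, and their line differences were -2.88 ± 0.50 and -2.43 ± 0.37 (limma adjusted p = 0.0032 and 0.0015). MYB-transcription factor 92 (Zm00001d024630), with a line difference of -6.82 ± 0.96 (limma adjusted p = 0.0011), had 17.2, 13.8 and 24.0 in JI63 on DAP 35, against 82.4, 59.5 and 160.4 on DAP 24, and 54.0, 86.0 and 49.5 in DAN3130 on DAP 35, against 6.68, 1.64 and 0 on DAP 24. Its counts were the lowest of the genes in this paragraph. Pyruvate decarboxylase2 (Zm00001d008651), an enzyme of ethanol fermentation, had 2255, 2653 and 2140.4 in JI63 on DAP 35, against 6318, 6561 and 7191 on DAP 24, and 3996, 3108 and 3904 in DAN3130 on DAP 35, against 2646, 2805 and 2403 on DAP 24, and its line difference was -1.99 ± 0.18 (limma adjusted p = 0.00022). Zea mays MADS1 (Zm00001d023955) had 561, 535 and 565 in JI63 on DAP 35, against 2361, 1346 and 1663 on DAP 24, and 619, 567 and 545 in DAN3130 on DAP 35, against 343, 285 and 425 on DAP 24, with a line difference of -2.39 ± 0.28 (limma adjusted p = 0.00047).

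Among the loci that rose in JI63 only, phytase2 (Zm00001d041670, chr3:132769007-132772726) had 611, 1488 and 589.6 in JI63 on DAP 35, against 52.3, 85.2 and 106 on DAP 24, and 34.1, 69.9 and 8.83 in DAN3130 on DAP 35, against 60.9, 47.4 and 78.9 on DAP 24. The JI63 libraries of DAP 35 lay far above the other 9, which overlapped. For phytase2 the line difference was 4.46 ± 0.88 (SE) on the log2 scale (limma adjusted p = 0.0059), with a change of 3.36 in JI63 and -1.10 in DAN3130. Phytase2 lies 486299 bases from phytase1 on chromosome 3, and both passed the test as higher in JI63, phytase1 as opposite and phytase2 as JI63-only. Sucrose transporter1 (Zm00001d027854, chr1:15301583-15306925), which loads sucrose with protons across the plasma membrane, had 439, 675 and 469.9 in JI63 on DAP 35, against 127, 111 and 94.4 on DAP 24, and 190.3, 228 and 205 in DAN3130 on DAP 35, against 362, 298 and 261 on DAP 24. The JI63 libraries were below those of DAN3130 on DAP 24 and above them on DAP 35, and the line difference was 2.78 ± 0.31 (SE) on the log2 scale (limma adjusted p = 0.00036), with a change of 2.23 in JI63 and -0.55 in DAN3130. PHD-transcription factor 6 (Zm00001d028863, chr1:48930452-48938138) had 340.0, 225 and 298 in JI63 on DAP 35, against 51.2, 54.6 and 58.3 on DAP 24, and 138, 102 and 86.6 in DAN3130 on DAP 35, against 175, 152 and 123 on DAP 24, and its line difference was 2.82 ± 0.38 (limma adjusted p = 0.00085).

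Allene oxide synthesis2 (Zm00001d028282, chr1:29125648-29127370), of the jasmonate pathway, rose in JI63 and yet stayed far below DAN3130, with 10.2, 22.0 and 16.4 in JI63 on DAP 35, against 2.69, 1.61 and 0 on DAP 24, and 428, 336 and 344 in DAN3130 on DAP 35, against 463, 353 and 434 on DAP 24. Its line difference was 3.13 ± 0.69 (limma adjusted p = 0.010). Gibberellin 20-oxidase3 (Zm00001d042611, chr3:173559174-173562022), which acts late in gibberellin synthesis, had 134, 756 and 112 in JI63 on DAP 35, against 48.0, 35.3 and 48.2 on DAP 24, and 62.5, 32.3 and 90.1 in DAN3130 on DAP 35, against 109.9, 89.3 and 101 on DAP 24. Library 27 was far above the other libraries of its group, and the gene lost its call without DAN3130 DAP 24 library 8, DAN3130 DAP 24 library 10, DAN3130 DAP 24 library 11, DAN3130 DAP 35 library 13 or JI63 DAP 24 library 24 (limma adjusted p = 0.0566 to 0.067). With all 12 libraries the line difference was 3.15 ± 0.87 (limma adjusted p = 0.029). Sugars will eventually be exported transporter6b (Zm00001d011299), a sugar carrier, had 37.5, 47.2 and 52.3 in JI63 on DAP 35, against 0, 0 and 0 on DAP 24, and 0, 0 and 1.77 in DAN3130 on DAP 35, against 2.97, 1.64 and 1.46 on DAP 24. It was thus at 0 in the 3 JI63 libraries of DAP 24, and no fold is given. Its limma adjusted p for the line difference was 0.00026.

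Among the loci that fell in JI63 only were genes of expansins, which loosen cell walls. Alpha expansin1 (Zm00001d043047, chr3:187342454-187347984) had 5.20, 21.2 and 5.48 in JI63 on DAP 35, against 131, 132 and 625 on DAP 24, and 562, 376 and 181 in DAN3130 on DAP 35, against 357, 269.9 and 377 on DAP 24, and beta expansin6 (Zm00001d029913, chr1:93847218-93848525) had 277, 369 and 139 in JI63 on DAP 35, against 2386, 1910.5 and 2909 on DAP 24, and 3717, 2599 and 1809 in DAN3130 on DAP 35, against 1521, 1500.4 and 1678 on DAP 24. In both, the JI63 libraries of DAP 35 lay below the other 9. Their line differences were -4.56 ± 0.93 and -4.01 ± 0.46 (limma adjusted p = 0.0069 and 0.00042). Of 25 tested cell wall genes, 5 had the lower change in JI63, all of them expansins, and 1 the higher (24% called, against 16.5% of all tested loci, and a median of 0.11, against 0.05). That 1 was alpha expansin3 (Zm00001d025018), at 0 in both lines on DAP 35 and with 0, 0 and 1.93 in JI63, against 49.0, 42.9 and 55.5 in DAN3130, on DAP 24, and neither edgeR nor DESeq2 called it. Without JI63 DAP 35 library 27 the cell wall counts were 9 lower and 2 higher.

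Sucrose phosphate synthase1 (Zm00001d012036), which makes the precursor of sucrose, had 264, 168 and 184 in JI63 on DAP 35, against 2269, 2118 and 2566 on DAP 24, and 480.1, 223 and 248 in DAN3130 on DAP 35, against 357, 289 and 326 on DAP 24, and the line difference was -3.40 ± 0.37 (SE) on the log2 scale (limma adjusted p = 0.00036), with a change of -3.51 in JI63 and -0.11 in DAN3130. Here JI63 on DAP 24 stood far above the other 9 libraries, and the lines overlapped on DAP 35. NAC-transcription factor 98 (Zm00001d046246, chr9:76267440-76272887) had 21.3, 17.1 and 12.8 in JI63 on DAP 35, against 126, 189.6 and 239.8 on DAP 24, and 631, 489 and 387 in DAN3130 on DAP 35, against 318, 314 and 481 on DAP 24. PIN-formed protein11 (Zm00001d006082, chr2:197602488-197606112), of the family that exports auxin from cells, had 14.9, 19.5 and 12.6 in JI63 on DAP 35, against 320.1, 119 and 228 on DAP 24, and 93.7, 105 and 197 in DAN3130 on DAP 35, against 145, 119 and 136 on DAP 24. In these transcription factor and auxin transport genes the JI63 libraries of DAP 35 lay below every other library. The line differences of NAC-transcription factor 98 and PIN-formed protein11 were -3.78 ± 0.45 and -3.56 ± 0.57 (limma adjusted p = 0.00047 and 0.0021). MYB-related-transcription factor 29 (Zm00001d006791, chr2:216766315-216767167) had 27.8, 7.32 and 1.60 in JI63 on DAP 35, against 107, 90.0 and 165 on DAP 24, and 439, 284 and 290.3 in DAN3130 on DAP 35, against 287, 319 and 476 on DAP 24. Its line difference was -3.70 ± 0.93 (limma adjusted p = 0.019), and it lost its call without DAN3130 DAP 24 library 8 (limma adjusted p = 0.051).

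The loci that rose in DAN3130 only were mostly lower in DAN3130 than in JI63 on DAP 24. Their choice used these same levels, so the medians describe the loci and test nothing. Over the 555 loci the median of JI63 minus DAN3130 was 1.17 on DAP 24 and -0.32 on DAP 35. Lipid binding protein1 (Zm00001d003760, chr2:57804441-57805296) had 661, 1457 and 720.5 in JI63 on DAP 35, against 1781, 954 and 1801 on DAP 24, and 298, 418 and 243 in DAN3130 on DAP 35, against 13.4, 21.3 and 38.0 on DAP 24, with a line difference of -4.47 ± 0.58 (limma adjusted p = 0.00068). Heat shock protein22 (Zm00001d052194, chr4:182772604-182773832) had 3612, 6745 and 2689 in JI63 on DAP 35, against 8883, 6818 and 7069 on DAP 24, and 5903, 3334 and 4882 in DAN3130 on DAP 35, against 1069, 974 and 558 on DAP 24, and the line difference was -3.36 ± 0.47 (SE) on the log2 scale (limma adjusted p = 1.0e-03), with a change of -0.90 in JI63 and 2.46 in DAN3130. The JI63 change of heat shock protein22 did not pass, and on DAP 35 the lines overlapped. Benzoxazinone synthesis13 (Zm00001d007718, chr2:238143557-238145188), a dioxygenase of benzoxazinoid synthesis, had 2155, 4257 and 2023 in JI63 on DAP 35, against 3891, 5400.4 and 5663 on DAP 24, and 1801, 2708 and 896 in DAN3130 on DAP 35, against 241, 315 and 482 on DAP 24, and its line difference was -3.19 ± 0.56 (limma adjusted p = 0.0033).

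NAC-transcription factor43 (Zm00001d030023, chr1:100385915-100387989) had 263, 422 and 109 in JI63 on DAP 35, against 384, 376 and 652 on DAP 24, and 76.7, 73.9 and 169 in DAN3130 on DAP 35, against 30.4, 27.2 and 21.9 on DAP 24, and Homeobox-transcription factor 66 (Zm00001d002799, chr2:22972434-22973879) had 124, 385 and 211 in JI63 on DAP 35, against 121, 111 and 346 on DAP 24, and 244, 245 and 115 in DAN3130 on DAP 35, against 20.0, 20.9 and 19.0 on DAP 24. In both genes every DAN3130 library of DAP 24 lay below the other 9. Their line differences were -2.85 ± 0.67 and -2.82 ± 0.71 (limma adjusted p = 0.014 and 0.020), and Homeobox-transcription factor 66 lost its call without JI63 DAP 35 library 26 (limma adjusted p = 0.0508). Peroxidase 5 (Zm00001d037550), of the family that oxidizes substrates with hydrogen peroxide, had 56.9, 130.2 and 76.3 in JI63 on DAP 35, against 152, 139.8 and 114 on DAP 24, and 85.2, 71.2 and 15.9 in DAN3130 on DAP 35, against 0, 1.31 and 10.2 on DAP 24, with a line difference of -4.69 ± 1.17 (limma adjusted p = 0.018).

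In the loci that fell in DAN3130 only, also chosen by these levels, the median of JI63 minus DAN3130 was -0.81 on DAP 24 and 0.53 on DAP 35. Benzoxazinone synthesis6 (Zm00001d048634, chr4:1846530-1848071), another dioxygenase of the pathway, had 216, 513 and 260.4 in JI63 on DAP 35, against 77.6, 141 and 359 on DAP 24, and 116, 79.3 and 88.9 in DAN3130 on DAP 35, against 1000.0, 933 and 1072 on DAP 24. Rotten ear2 (Zm00001d041590, chr3:128629007-128633579), a boron transporter, had 271, 197 and 252 in JI63 on DAP 35, against 109.9, 169 and 205 on DAP 24, and 8.52, 90.0 and 54.8 in DAN3130 on DAP 35, against 389, 421 and 518 on DAP 24. Floury3 (Zm00001d009292, chr8:52707946-52709109), a PLATZ protein of the endosperm, had 14.2, 11.4 and 36.5 in JI63 on DAP 35, against 25.3, 35.3 and 40.4 on DAP 24, and 42.6, 109 and 54.2 in DAN3130 on DAP 35, against 1539, 1503 and 1052 on DAP 24. In these 3 genes the DAN3130 libraries of DAP 24 were above all others. The line differences were 4.35 ± 0.65 for benzoxazinone synthesis6, 4.20 ± 0.89 for rotten ear2 and 3.56 ± 0.66 for floury3 (limma adjusted p = 0.0014, 0.0082 and 0.0042). Math-btb25 (Zm00001d036646, chr6:96107181-96108854) had 292, 389 and 403 in JI63 on DAP 35, against 63.0, 139.8 and 125 on DAP 24, and 1.42, 21.5 and 9.42 in DAN3130 on DAP 35, against 59.4, 76.2 and 49.7 on DAP 24. Its JI63 change of 1.78 did not pass and its DAN3130 change of -2.90 did, with a line difference of 4.68 ± 0.93 (limma adjusted p = 0.0059). It lies 95108 bases from math-btb26 on chromosome 6, and the line differences of these neighbours had opposite signs.

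Most called replication and histone genes had the higher change in JI63, many through a fall in DAN3130. The histone list was added with values in view, so its direction and rank among the lists are no independent evidence. Of 24 tested histone loci, 12 had the higher change in JI63 and 0 the lower by limma (17 and 0 at an unadjusted p under 0.05, 11 and 0 by edgeR, 12 and 0 by DESeq2), and of 77 cell cycle, replication and cytoskeleton genes 21 had the higher and 6 the lower, against 7.92% and 8.55% of all tested loci. The median line difference was 1.74 for the histones and 0.62 for the second list. Of the 12 histone loci, 11 fell in DAN3130 only and 1, histone 2B5, moved in opposite directions. Histone 2B5 (Zm00001d051591) had 334, 623 and 357 in JI63 on DAP 35, against 95.4, 156 and 347 on DAP 24, and 318, 251 and 313 in DAN3130 on DAP 35, against 1056, 950.5 and 1151 on DAP 24. Library 27 was the highest of its group, and the line difference was 3.12 ± 0.54 (SE) on the log2 scale (limma adjusted p = 0.0031), with a change of 1.28 in JI63 and -1.84 in DAN3130. The H4C7 locus Zm00001d002546 had 148, 435 and 104 in JI63 on DAP 35, against 60.9, 51.4 and 145 on DAP 24, and 62.5, 56.4 and 71.2 in DAN3130 on DAP 35, against 309.6, 330.1 and 179.6 on DAP 24, with a line difference of 3.33 ± 0.73 (limma adjusted p = 1.0e-02). Loci of the histone H3 and H4 families are near-identical copies, so that reads may be split between them and single members are uncertain.

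The 6 called genes with minichromosome maintenance in their name, which is that of the replicative helicase's subunits, differed in the same direction. Only called members are counted here, so no share of the family is given. Minichromosome maintenance4, minichromosome maintenance5, minichromosome maintenance6 and minichromosome maintenance7 moved in opposite directions, with line differences of 3.51, 3.21, 2.95 and 3.11, and minichromosome maintenance1 (2.81) and minichromosome maintenance2 (1.92) fell in DAN3130 only. Minichromosome maintenance6 (Zm00001d010406) had 621, 409 and 589.6 in JI63 on DAP 35, against 178, 233 and 239 on DAP 24, and 227, 245 and 286 in DAN3130 on DAP 35, against 683, 783 and 920.1 on DAP 24. DAN3130 was above JI63 on DAP 24 and below it on DAP 35, with no overlap, and the limma adjusted p was 0.00023. Minichromosome maintenance5 (Zm00001d018384) had 599, 433 and 519.7 in JI63 on DAP 35, against 152, 148 and 245 on DAP 24, and 232, 332 and 190.2 in DAN3130 on DAP 35, against 682, 629 and 1117 on DAP 24, and minichromosome maintenance7 (Zm00001d049190) had 973, 517 and 763 in JI63 on DAP 35, against 249, 423 and 549.9 on DAP 24, and 433, 409.9 and 573 in DAN3130 on DAP 35, against 2081, 2058 and 2354 on DAP 24. Both crossed in the same way, with an overlap of the lines on DAP 35 in minichromosome maintenance7. E2F-DP-transcription factor 213 (Zm00001d052288), of the family that drives genes of DNA synthesis, had 4.86, 1.63 and 3.43 in JI63 on DAP 35, against 0, 3.21 and 9.15 on DAP 24, and 1.42, 0 and 0 in DAN3130 on DAP 35, against 66.8, 44.2 and 52.6 on DAP 24. It was high only in DAN3130 on DAP 24. Its line difference was 5.57 ± 1.05 (limma adjusted p = 0.0048). Kinesin-related protein2 (Zm00001d045554), a motor protein of microtubules, had 29.8, 30.1 and 31.5 in JI63 on DAP 35, against 15.6, 32.1 and 40.4 on DAP 24, and 8.52, 10.8 and 0 in DAN3130 on DAP 35, against 129.9, 120.1 and 107 on DAP 24, with 4.78 ± 1.10 (limma adjusted p = 0.013). Proliferating cell nuclear antigen2, the clamp of the DNA polymerases, differed by 1.46 and lost its call without DAN3130 DAP 24 library 11 or JI63 DAP 35 library 26 (limma adjusted p = 0.0501 to 0.0527). The 6 genes of the list with the lower change in JI63 were beta tubulin3, alpha tubulin6, actin depolymerizing factor3, cyclin dependent kinase8, minichromosome instability12b and actin1, of which 4 belong to the cytoskeleton. The 21 higher calls became 12 without JI63 DAP 35 library 26, 13 without DAN3130 DAP 24 library 8, library 10 or JI63 DAP 24 library 22, and 25 without library 27. The 6 lower calls became 3 without DAN3130 DAP 24 library 8 or library 10, JI63 DAP 24 library 24 or library 25, or JI63 DAP 35 library 26.

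**Figure D3:**
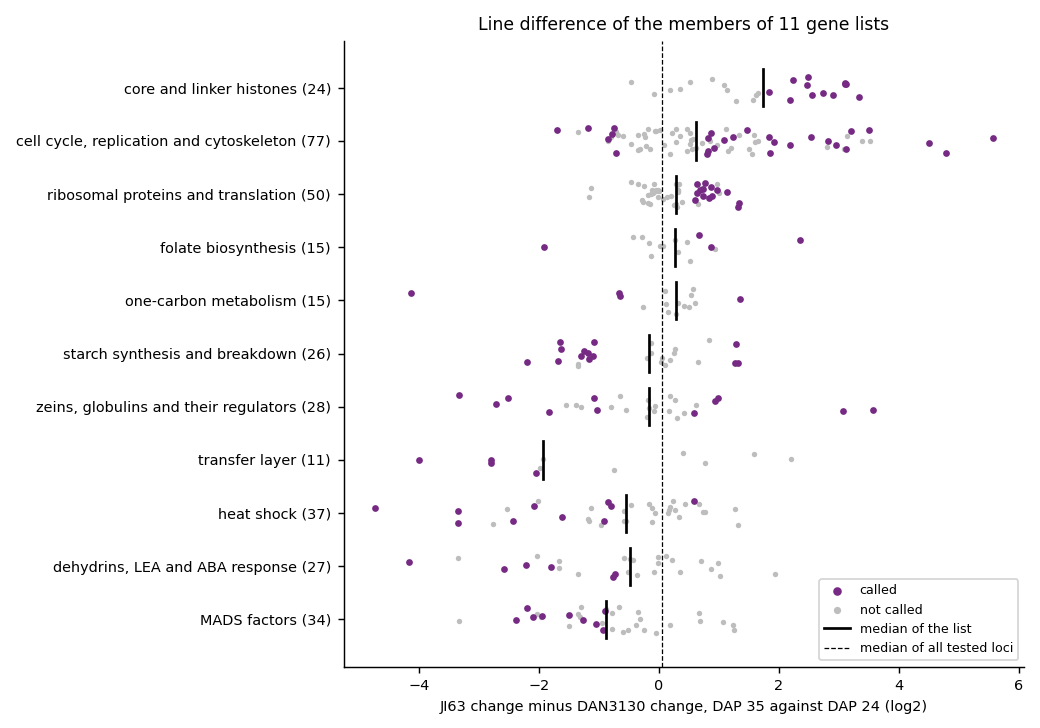
Line difference in the stage change (horizontal axis, log2) for every tested member of 11 gene lists, with called members in purple, a bar at each list's median and a dashed line at the median of all tested loci. The histones (median 1.74, 12 of 24 called, all to the right) and the transfer layer genes (median -1.94, 4 of 11 called, all to the left) lie furthest from the median of all tested loci, 0.05. The histone list was added with values in view.

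Ribosomal and translation genes shared the direction of the histones with smaller values. Of 50 tested, 14 had the higher change in JI63 and 0 the lower by limma (16 and 2 at an unadjusted p under 0.05, 11 and 0 by edgeR, 14 and 0 by DESeq2), with a median of 0.29 and 28% called, against 16.5% of all tested loci. Ribosomal protein L30 (Zm00001d008245) rose in JI63 only and had 220.4 ± 45.6 in JI63 on DAP 35, against 131 ± 7.99 on DAP 24, and 630.2 ± 102 in DAN3130 on DAP 35, against 969 ± 236 on DAP 24 (mean ± SD, n = 3 each). Its line difference was 1.33 ± 0.31 (limma adjusted p = 0.013). Ribosomal protein S1-like1 moved in opposite directions (1.31, from 0.52 in JI63 and -0.79 in DAN3130), but its locus joins 2 genes. The 14 calls became 6 without DAN3130 DAP 24 library 10, 7 without JI63 DAP 35 library 26, 8 without DAN3130 DAP 24 library 8 or library 11 or JI63 DAP 24 library 22, and 9 without DAN3130 DAP 35 library 13.

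Most called starch genes had the lower change in JI63. Of 26 tested, 10 had the lower change in JI63 and 3 the higher, so 50% of the list was called against 16.5% of all loci. The list median was -0.17, with a median change of -1.14 in JI63 and -0.50 in DAN3130. Waxy1 (Zm00001d045462), the starch synthase bound to granules, had 6459, 6431 and 2698 in JI63 on DAP 35, against 20621, 27778 and 40206 on DAP 24, and 19502, 12647 and 17948 in DAN3130 on DAP 35, against 19493, 22108 and 21979 on DAP 24. All JI63 libraries of DAP 35 lay below the other 9, and the line difference was -2.20 ± 0.46 (SE) on the log2 scale (limma adjusted p = 0.0082), with a change of -2.56 in JI63 and -0.37 in DAN3130. Sugary2 (Zm00001d037234), a soluble starch synthase, fell in both lines and further in JI63, with 1732, 1488 and 1111 in JI63 on DAP 35, against 7977, 9226 and 10236 on DAP 24, and 7223, 3731 and 6404 in DAN3130 on DAP 35, against 11846, 12253 and 10442 on DAP 24, and a line difference of -1.63 ± 0.32 (limma adjusted p = 0.0061). The called subunits of ADP-glucose pyrophosphorylase, which makes the starch precursor, went both ways. The lower change in JI63 was seen in shrunken2, at -1.17 (-2.10 in JI63, -0.93 in DAN3130), and brittle endosperm2, at -1.68 (-2.54 in JI63, -0.85 in DAN3130). ADP glucose pyrophosphorylase large subunit leaf2 had the higher, at 1.31. Shrunken2 was not called when libraries were scaled to equal totals, and brittle endosperm2 lost its call without DAN3130 DAP 24 library 11 (limma adjusted p = 0.0514). Also lower in JI63 were amylose extender1 (-1.11), starch branching enzyme1 (-1.08), starch synthase I (-1.26) and pullulanase-type starch debranching enzyme1 (-1.65). The 3 with the higher change rose in JI63 only and were isoamylase-type starch debranching enzyme3 (1.29), ADP glucose pyrophosphorylase large subunit leaf2 (1.31) and starch phoshorylase2 (1.27). Without DAN3130 DAP 24 library 11 the 10 lower calls became 6.

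Of 28 tested genes of zeins, globulins and their regulators, 6 had the lower change in JI63 and 5 the higher (median -0.18), so that 39.3% were called, against 16.5% of all tested loci (8.55% lower and 7.92% higher). Opaque endosperm2 (Zm00001d018971), an activator of zein genes, had 1119, 725 and 538 in JI63 on DAP 35, against 5696, 8212 and 11949.8 on DAP 24, and 5187, 2865 and 3413 in DAN3130 on DAP 35, against 4682, 5672 and 8423 on DAP 24. The JI63 counts of DAP 35 were the lowest of the 4 groups, and the line difference was -2.73 ± 0.47 (SE) on the log2 scale (limma adjusted p = 0.0031), with a change of -3.44 in JI63 and -0.71 in DAN3130. The zein locus 22kD alpha zein5 (Zm00001d048806) fell in both lines (-3.33, from -4.81 in JI63 and -1.48 in DAN3130), but reads of this multigene family may be split between near-identical copies. The 5 higher calls were floury3, delta zein structural18 (3.06) and 3 protein disulfide isomerases, which help storage proteins fold, at 0.58 to 0.99. Without DAN3130 DAP 24 library 8 or library 10 they became 2, and without DAN3130 DAP 35 library 12 or library 13 or JI63 DAP 24 library 22 they became 3. Without JI63 DAP 35 library 27 the lower calls were 10.

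The transfer layer list had 4 lower and 0 higher of 11 tested by limma (5 and 0 at an unadjusted p under 0.05, 4 and 0 by edgeR, 6 and 0 by DESeq2), so that 36.4% were called, against 16.5% of all tested loci, and its median of -1.94 was the lowest of the lists. The mean log2 level of the 11 loci was 3.06 to 3.73 in JI63 on DAP 35, against 4.39 to 5.87 on DAP 24. In DAN3130 it was 7.25 to 8.32 on DAP 35, against 8.46 to 8.81 on DAP 24, so this mean was lower in JI63 on both days. It gives loci with few and with many counts equal weight. By summed count, which the abundant members set, the 12 transfer layer markers were closer on DAP 24. They summed to 9159.6 to 13063 in JI63, against 13202 to 14780.2 in DAN3130. Basal endosperm transfer layer9 (Zm00001d041822) had 182, 77.3 and 63.7 in JI63 on DAP 35, against 5299, 4920.0 and 5183 on DAP 24, and 1464, 2409.6 and 1934 in DAN3130 on DAP 35, against 6344, 6051 and 6334 on DAP 24. It fell in both lines and further in JI63, and the line difference was -4.00 ± 0.43 (SE) on the log2 scale (limma adjusted p = 0.00032), with a change of -5.72 in JI63 and -1.72 in DAN3130. Sugars will eventually be exported transporter4c (Zm00001d015912), which brings hexoses through the transfer layer, had 1215, 1146 and 586 in JI63 on DAP 35, against 3381, 4443 and 5882 on DAP 24, and 4937, 4323 and 5030.2 in DAN3130 on DAP 35, against 5595, 5105 and 5658 on DAP 24, with a line difference of -2.06 ± 0.36 (limma adjusted p = 0.0033). Miniature seed1, the cell wall invertase of the layer, differed by -2.80 (-3.01 in JI63, -0.21 in DAN3130) and lost its call in 10 of the 12 fits that left out 1 library (limma adjusted p = 0.0526 to 0.0865), all but those without JI63 DAP 24 library 22 or JI63 DAP 35 library 27. Myb related protein1, an activator of transfer layer genes, differed by -2.80 (-3.47 in JI63, -0.67 in DAN3130) and lost its call without DAN3130 DAP 24 library 8, DAN3130 DAP 24 library 10, DAN3130 DAP 35 library 13, JI63 DAP 24 library 25 or JI63 DAP 35 library 29 (limma adjusted p = 0.0555 to 0.0685). The count of 4 became 2 without DAN3130 DAP 24 library 8 or library 10, DAN3130 DAP 35 library 13, JI63 DAP 24 library 25 or JI63 DAP 35 library 29.

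The marker lists of the kernel's cell types share genes with the transfer layer, starch and zein lists above. Their sums therefore describe the same genes again and are no separate evidence. The summed normalized count of 12 transfer layer markers was 734 to 1622 in JI63 on DAP 35, against 9159.6 to 13063 on DAP 24, and 8064 to 8828 in DAN3130 on DAP 35, against 13202 to 14780.2 on DAP 24. That of 17 starchy endosperm markers, of which 7 were at 0 in all 12 libraries, was 199304 to 206344 in JI63 on DAP 35, against 694872 to 1340030.0 on DAP 24, and 756665 to 828462 in DAN3130 on DAP 35, against 1461600.0 to 1764110.0 on DAP 24. Both lists were thus lowest in JI63 on DAP 35, with no overlap with the other groups. The 10 embryo markers summed to 1166500.0 to 3060680.0 in JI63 on DAP 35, against 793424 to 838981 on DAP 24, and 1234820.0 to 1413090.0 in DAN3130 on DAP 35, against 410864 to 532498 on DAP 24, higher on DAP 35 in both lines, with 1 at 0 throughout. The 12 aleurone markers summed to 10327 to 12399.9 in JI63 on DAP 35, against 16415 to 19293 on DAP 24, and 14682 to 17525 in DAN3130 on DAP 35, against 20434 to 20788 on DAP 24. The 6 markers of the embryo surrounding region summed to 22.2 to 38.7 in JI63 on DAP 35, against 681 to 904 on DAP 24, and 25.9 to 69.9 in DAN3130 on DAP 35, against 242 to 319.8 on DAP 24, and both that were tested had the lower change in JI63, embryo surrounding region2 at -4.38 (-6.97 in JI63, -2.58 in DAN3130) and embryo surrounding region6 at -1.83 (-4.25 in JI63, -2.42 in DAN3130), the second of which lost its call in 10 of the 12 fits that left out 1 library (limma adjusted p = 0.0574 to 0.111), all but those without DAN3130 DAP 35 library 14 or JI63 DAP 35 library 26. The 16 markers of green maternal tissue summed to 267 to 535 in JI63 on DAP 35, against 489.8 to 521 on DAP 24, and 259 to 516 in DAN3130 on DAP 35, against 181 to 289 on DAP 24, with overlap between groups. Each marker list thus had counts in every group, but single markers could be near 0. Embryo surrounding region2 had 0, 1.63 and 2.74 in JI63 on DAP 35. The part of these cell type levels in the gene results was not tested.

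**Figure D4:**
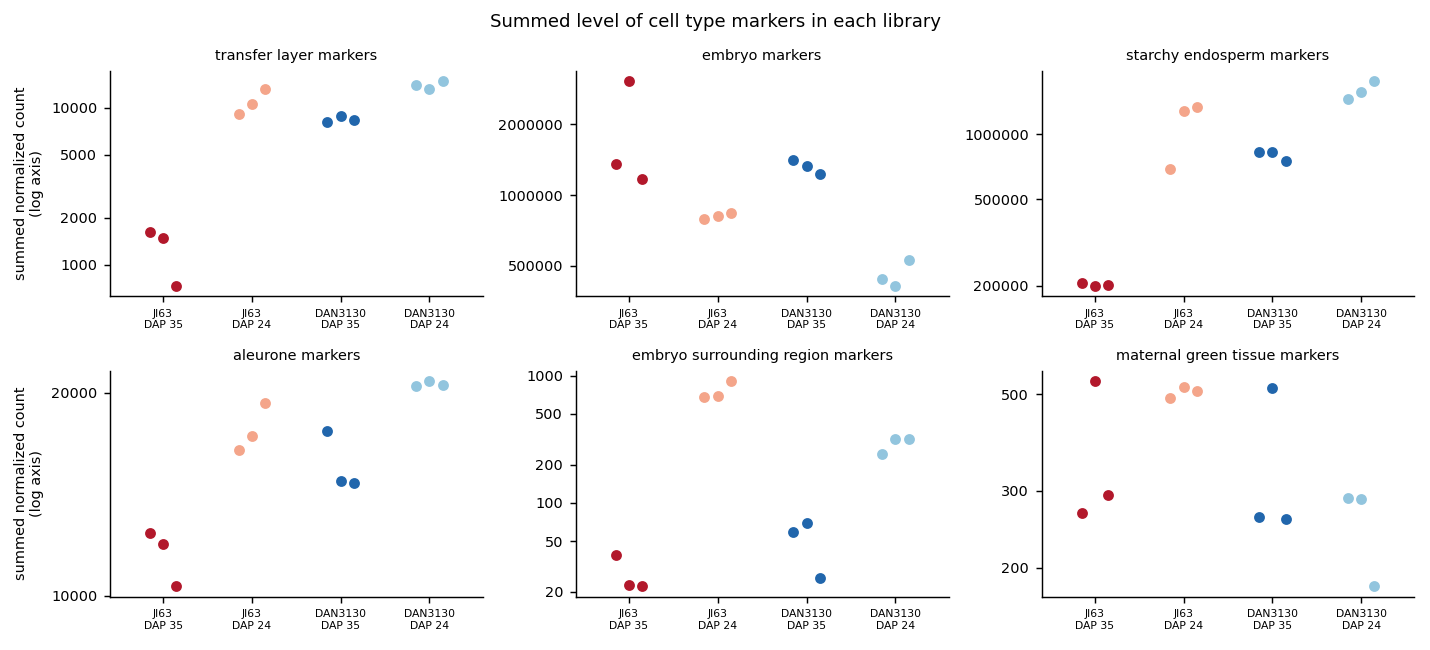
Summed normalized count (logarithmic axis) of each cell type marker list, with 1 point per library, JI63 left of DAN3130 and DAP 35 left of DAP 24 in each line. The transfer layer sum in JI63 on DAP 35 is 734 to 1622, below every other group, and library 27 is the highest embryo point.

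Called heat shock, dehydrin and LEA genes mostly had the lower change in JI63. Of 37 tested heat shock genes, 9 were lower and 1 higher (27% called, median -0.54), and of 27 dehydrin, LEA and abscisic acid (ABA) response genes 6 were lower and 0 higher by limma (median -0.48; 8 and 1 at an unadjusted p under 0.05, 4 and 0 by edgeR, 6 and 0 by DESeq2). The second list had 22.2% called, and of all tested loci 16.5% were called, 8.55% lower and 7.92% higher. The median change of the heat shock list was 0.16 in JI63 and 0.77 in DAN3130, and that of the second list 0.11 and 0.81. Heat shock protein26 (Zm00001d028408) rose in both lines and less so in JI63, with 1686, 2681 and 1254 in JI63 on DAP 35, against 1281, 646 and 564 on DAP 24, and 1547, 1244 and 1351 in DAN3130 on DAP 35, against 75.0, 52.3 and 48.2 on DAP 24, and the line difference was -3.36 ± 0.46 (SE) on the log2 scale (limma adjusted p = 0.00088), with a change of 1.20 in JI63 and 4.56 in DAN3130. Heat shock protein18c (Zm00001d008841) had 678, 2724 and 527 in JI63 on DAP 35, against 2348, 3849.9 and 4528 on DAP 24, and 1791, 946 and 799.6 in DAN3130 on DAP 35, against 166, 148 and 118 on DAP 24, with library 27 inside the JI63 range of DAP 24. The lines moved in opposite directions, with a difference of -4.74 ± 0.73 (limma adjusted p = 0.0016). Heat shock protein, 90 kDa (-2.09, from -0.01 in JI63 and 2.07 in DAN3130) and heat shock protein1 (-1.62, from -0.37 in JI63 and 1.25 in DAN3130) rose in DAN3130 only. The higher one was chaperonin 1 (0.57).

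Dehydrin1 (Zm00001d037894), a protein that protects cells as they dry, had 75387, 141102 and 86678 in JI63 on DAP 35, against 27140.4, 27863 and 16233 on DAP 24, and 128842, 142068 and 84728 in DAN3130 on DAP 35, against 4172, 3887 and 5952 on DAP 24. JI63 was above DAN3130 on DAP 24, and on DAP 35 the lines overlapped. For dehydrin1 the line difference was -2.58 ± 0.42 (SE) on the log2 scale (limma adjusted p = 0.0024), with a change of 2.08 in JI63 and 4.66 in DAN3130. Lea protein group3 (Zm00001d038870) had 42115, 69577 and 46883 in JI63 on DAP 35, against 15232, 19442 and 10967 on DAP 24, and 46478, 52396 and 39394 in DAN3130 on DAP 35, against 2736, 2924 and 2759 on DAP 24, with a line difference of -2.23 ± 0.32 (limma adjusted p = 0.0011). Abscisic acid stress ripening3, -4.18 (-1.43 in JI63, 2.75 in DAN3130), lost its call in 9 of the 12 fits that left out 1 library (limma adjusted p = 0.05 to 0.0745), all but those without DAN3130 DAP 24 library 10, DAN3130 DAP 35 library 13 or JI63 DAP 35 library 27. The remaining lower calls were abscisic acid 8'-hydroxylase3 (-1.79), which breaks down ABA, dehydrin6 (-0.78) and viviparous5 (-0.73), of carotenoid synthesis upstream of ABA. Of 19 embryo and oil body genes, 5 were lower and 1 higher (31.6% called, against 16.5% of all tested loci, median -0.46). Embryo specific protein1 (Zm00001d037988) rose in DAN3130 only, with 150241, 225031 and 134644 in JI63 on DAP 35, against 136987, 119698 and 113459 on DAP 24, and 267556, 268520.0 and 239809 in DAN3130 on DAP 35, against 54405, 48859 and 53829 on DAP 24, and a line difference of -1.87 ± 0.34 (limma adjusted p = 0.0038). Lower changes in JI63 were also found for 3 stearoyl desaturases, which make oleic acid chains, at -2.16, -0.95 and -0.46. The number of stearoyl desaturases tested is not given, so these values show no direction of the family. The embryo and oil body count of 5 became 3 without DAN3130 DAP 24 library 10 or JI63 DAP 35 library 29, and 8 without library 27.

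The series was collected for folate, and the study lists 15 loci of folate biosynthesis and 15 of one-carbon metabolism by identifier. The study chose these with the same libraries in view, so the lists are no independent evidence of direction. Of the biosynthesis genes, 3 had the higher change in JI63 and 1 the lower (median 0.26), and of the one-carbon genes 1 the higher and 3 the lower (median 0.28), so that 26.7% of each list was called, beside 16.5% of all tested loci. Folylpolyglutamate synthetase2 (Zm00001d032529, chr1:229632719-229640210), which adds glutamates to folates and so keeps them in the cell, moved in opposite directions. It had 776, 594 and 753 in JI63 on DAP 35, against 258, 244 and 216 on DAP 24, and 365, 403 and 409.8 in DAN3130 on DAP 35, against 641, 717 and 684 on DAP 24. JI63 was above DAN3130 on DAP 35 and below it on DAP 24, with no overlap, and the line difference was 2.35 ± 0.21 (SE) on the log2 scale (limma adjusted p = 0.00022), with a change of 1.55 in JI63 and -0.79 in DAN3130. The study calls this locus FPGS1, and its FPGS2 (Zm00001d048514) had a line difference of -0.29 ± 0.21 that did not pass (limma adjusted p = 0.39).

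In the pterin branch, DHNA2 (Zm00001d031995), a dihydroneopterin aldolase, had 155, 264 and 196 in JI63 on DAP 35, against 259, 612 and 192 on DAP 24, and 338, 427 and 452 in DAN3130 on DAP 35, against 241, 159.7 and 115 on DAP 24. It rose in DAN3130 only, with a line difference of -1.93 ± 0.56 (limma adjusted p = 0.035), and lost its call in 7 of the 12 fits that left out 1 library (limma adjusted p = 0.0602 to 0.0864), all but those without DAN3130 DAP 24 library 8, DAN3130 DAP 35 library 12, JI63 DAP 24 library 22, JI63 DAP 24 library 25 or JI63 DAP 35 library 27. DHNA1 (-0.14 ± 0.41) and the GTP cyclohydrolases that open the branch, GCHI-1 (0.01 ± 0.20) and GCHI-2 (-0.44 ± 0.58), did not pass. In the p-aminobenzoate branch ADCL1 (Zm00001d029231), an aminodeoxychorismate lyase, fell in DAN3130 only and had 2448, 2378 and 2957 in JI63 on DAP 35, against 2029, 2094 and 1851 on DAP 24, and 895, 900.4 and 732 in DAN3130 on DAP 35, against 1333, 1169 and 1041 on DAP 24, with 0.86 ± 0.19 (limma adjusted p = 0.011). ADCS, the enzyme before it, did not pass (0.46 ± 0.27), nor did ADCL2 (0.52 ± 0.49), whose locus joins 2 genes. DRTS3 (Zm00001d007318), a dihydrofolate reductase and thymidylate synthase, differed by 0.67 ± 0.20 (limma adjusted p = 0.039) with neither line's change past the test, and lost its call in 8 of the 12 fits that left out 1 library (limma adjusted p = 0.0602 to 0.0956), all but those without DAN3130 DAP 24 library 11, DAN3130 DAP 35 library 14, JI63 DAP 24 library 22 or JI63 DAP 35 library 27. The other biosynthesis genes, HPPK/DHPS (0.07 ± 0.25), DHFS1 (0.93 ± 0.49), DHFS2 (0.31 ± 0.39), DRTS4 (0.26 ± 0.28) and GGH (-0.17 ± 0.26), which removes glutamates again, did not pass.

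**Figure D5:**
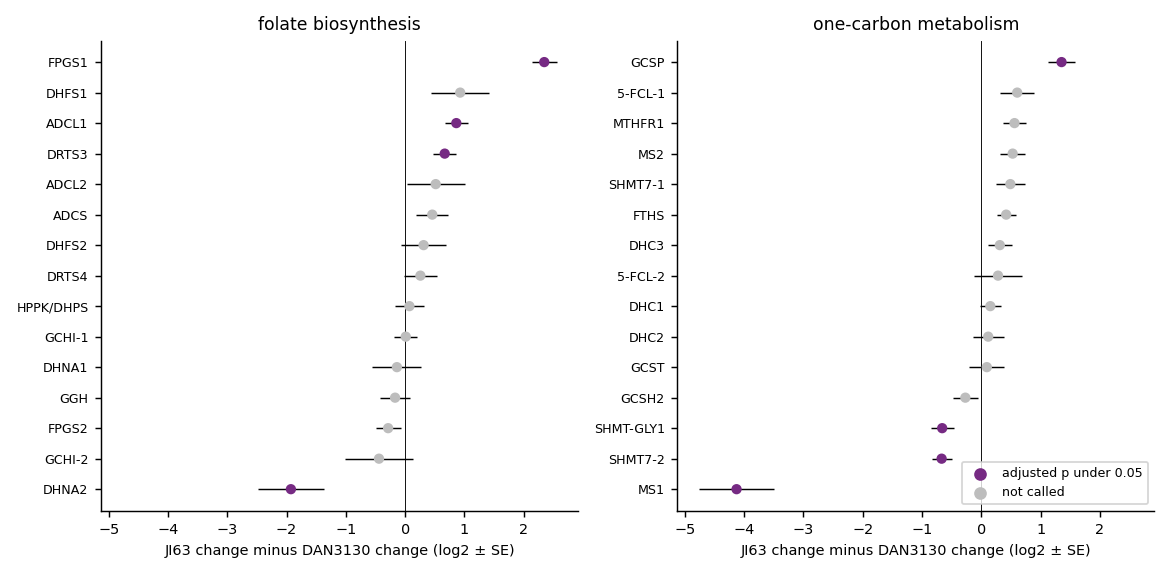
Line difference in the stage change (horizontal axis, log2, with SE) for the 15 folate biosynthesis and 15 one-carbon loci the study lists, with called loci in purple and the others in grey. MS1 lies furthest to the left at -4.13 and folylpolyglutamate synthetase2, labelled FPGS1, furthest to the right at 2.35, and 22 of the 30 loci are not called.

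Methionine synthase passes the methyl group of 5-methyl-tetrahydrofolate to homocysteine. MS1 (Zm00001d031129, chr1:178802661-178805706) had 44.8, 73.2 and 45.7 in JI63 on DAP 35, against 165, 278 and 222 on DAP 24, and 95.2, 51.1 and 44.2 in DAN3130 on DAP 35, against 11.1, 22.2 and 8.76 on DAP 24. The JI63 libraries were lower on DAP 35 and the DAN3130 libraries higher, and the line difference was -4.13 ± 0.63 (SE) on the log2 scale (limma adjusted p = 0.0016), with a change of -2.01 in JI63 and 2.12 in DAN3130. Its counts were low beside MS2, which had 7465 ± 941 in JI63 and 6719 ± 442 in DAN3130 on DAP 35 (normalized counts not scaled by length, mean ± SD, n = 3 each) and a line difference of 0.53 ± 0.21 that did not pass. Glycine decarboxylase1 (Zm00001d023437, chr10:5599455-5606101), the P protein of the glycine cleavage system, had 2953, 3613 and 3017 in JI63 on DAP 35, against 2244, 1788 and 2531 on DAP 24, and 2291, 1555 and 2046 in DAN3130 on DAP 35, against 3586, 3377 and 3172 on DAP 24. The lines moved in opposite directions, and the line difference was 1.35 ± 0.23 (SE) on the log2 scale (limma adjusted p = 0.0029), with a change of 0.55 in JI63 and -0.80 in DAN3130. The T and H proteins of the system, GCST (0.09 ± 0.30) and GCSH2 (-0.27 ± 0.21), did not pass. Of the serine hydroxymethyltransferases, which move a carbon unit from serine to tetrahydrofolate, SHMT7-2 fell in JI63 only (-0.67, from -0.41 in JI63 and 0.26 in DAN3130) and glycine1 rose in DAN3130 only (-0.66, from -0.05 in JI63 and 0.61 in DAN3130), while SHMT7-1 did not pass (0.49 ± 0.24). SHMT7-2 lost its call without DAN3130 DAP 24 library 8 (limma adjusted p = 0.0563), and glycine1 lost its call in 9 of the 12 fits that left out 1 library (limma adjusted p = 0.0536 to 0.0863), all but those without DAN3130 DAP 35 library 13, JI63 DAP 24 library 24 or JI63 DAP 35 library 27. MTHFR1, which makes 5-methyl-tetrahydrofolate, differed by 0.56 ± 0.20 and did not pass, and the 6 loci FTHS, DHC1, DHC2, DHC3, 5-FCL-1 and 5-FCL-2 lay between 0.12 and 0.61 without passing. Without JI63 DAP 35 library 27 the one-carbon list had 3 higher and 3 lower calls, without DAN3130 DAP 24 library 8 it had 1 and 1, and without JI63 DAP 24 library 22 it had 2 and 2.

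In pyruvate metabolism, glycolysis and fermentation, 11 of 59 tested genes had the higher change in JI63 and 9 the lower (33.9% called, against 16.5% of all tested loci, median -0.26). The hexokinases, which phosphorylate hexoses, went both ways. Hexokinase5 (Zm00001d043511) had 732, 582 and 727 in JI63 on DAP 35, against 468, 577 and 665 on DAP 24, and 337, 476 and 456 in DAN3130 on DAP 35, against 1896, 1936 and 1996 on DAP 24, and it fell in DAN3130 only, with a line difference of 2.47 ± 0.24 (limma adjusted p = 0.00023). Hexokinase1 (-1.67) and hexokinase4 (-1.38) fell in JI63 only and hexokinase3 (0.90) rose in JI63 only. The 3 called phosphoenolpyruvate carboxylases, which feed carbon into organic acids, had the higher change in JI63, phosphoenolpyruvate carboxylase2 at 1.04, phosphoenolpyruvate carboxylase3 at 1.06 and phosphoenolpyruvate carboxylase4 at 1.36. The fermentation enzymes pyruvate decarboxylase2 (-1.99), pyruvate decarboxylase3 (-1.16) and alcohol dehydrogenase2 (-1.67) had the lower. For these enzyme families called members alone are given, without the number tested. Without DAN3130 DAP 24 library 8 the counts of the whole list were 7 higher and 8 lower. Of 28 amino acid and nitrogen genes, 5 were higher and 3 lower (28.6% called, median 0.33), among them glutamine synthetase2 (-1.96, from -1.56 in JI63 and 0.40 in DAN3130), which fell in JI63 only, and alanine amino transferase8 (1.81), which moved in opposite directions. Scaled to equal totals, the list had 2 higher and 3 lower, and by DESeq2 6 higher and 5 lower. Of 54 genes of sucrose cleavage, sugar transport and trehalose, 4 were higher and 4 lower (median -0.02), a share of 14.8% and near that of all loci, and without library 27 they were 6 and 8.

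Transcription factor families varied in how many members were called. Of 34 tested MADS genes, 9 had the lower change in JI63 and 0 the higher by limma (16 and 1 at an unadjusted p under 0.05, 10 and 0 by edgeR, 12 and 0 by DESeq2). That is 26.5% of the list, against 16.5% of all tested loci, of which 8.55% were lower. The median was -0.89, against 0.05 for all tested loci, and 15 fell in JI63 while 1 rose in DAN3130. Besides Zea mays MADS1 they included MADS-transcription factor 41 (-2.10), Zea mays MADS-box 15 (-1.96) and MADS1 (-1.51). MADS-transcription factor 74 (-2.20) lost its call in 7 of the 12 fits that left out 1 library (limma adjusted p = 0.0548 to 0.0808), all but those without DAN3130 DAP 24 library 11, DAN3130 DAP 35 library 13, DAN3130 DAP 35 library 14, JI63 DAP 24 library 22 or JI63 DAP 35 library 27. The 9 became 4 without DAN3130 DAP 24 library 10 or JI63 DAP 24 library 25, and 5 without DAN3130 DAP 24 library 8, JI63 DAP 24 library 24 or JI63 DAP 35 library 29. Of 137 MYB genes 18 were lower and 5 higher (median -0.18), which is 16.8% and near the share of all loci. Of these, 12 fell in JI63 only, and without library 27 the counts were 27 lower and 8 higher, beside 3129 lower and 2831 higher over all tested loci. The 5 higher MYB calls became 2 without DAN3130 DAP 24 library 11 and 3 without library 8 of that group, JI63 DAP 24 library 24 or JI63 DAP 35 library 26. Of 78 NAC genes 10 were lower and 4 higher (median -0.33), a share of 17.9% and near that of all loci, and the 4 became 1 without DAN3130 DAP 24 library 11 or JI63 DAP 35 library 26 and 2 without any other library except DAN3130 DAP 35 library 12 and JI63 DAP 35 library 27.

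The mature kernels give a readout that the line difference did not use. Among the loci that rose in JI63 only, JI63 was above DAN3130 in the mature kernel at 68.9%, and among the opposite loci with JI63 higher at 71%, against 54.4% of all tested loci. The share was 38% among the loci that fell in JI63 only, 45.1% among the opposite loci with JI63 lower, 43.1% among those that rose in DAN3130 only and 58.4% among those that fell in DAN3130 only. Each share lay on the side of 54.4% on which the lines stood to each other on DAP 35, and no test was made. Loci with equal means in the mature kernel counted as not higher in JI63. The median of JI63 minus DAN3130 at maturity was 0.54 and 0.61 for the first 2 patterns. It was near 0 for those that fell in JI63 only (-0.017) and the opposite ones with JI63 lower (-0.0019). For those that rose or fell in DAN3130 only it was -0.16 and 0.27, against 0.17 over all tested loci. Single genes were mixed. Math-btb26 had 0, 6.21 and 2.43 in mature JI63, against 164, 113 and 319.6 in mature DAN3130, and math-btb25 had 129, 70.4 and 80.3 in mature JI63, against 0, 0 and 0 in mature DAN3130, so that these neighbours stood in opposite order without overlap. Phytase2 had 325, 149 and 295 in mature JI63, against 57.9, 0 and 59.4 in mature DAN3130, still higher in JI63. DHNA2 had 333, 335 and 321 in mature JI63, against 2199, 5097 and 8324 in mature DAN3130, and cytokinin oxidase 4 had 441, 257 and 565 in mature JI63, against 994, 1562 and 1577 in mature DAN3130. In both the DAN3130 libraries were the higher ones without overlap. Folylpolyglutamate synthetase2 had 1566, 1596 and 1183 in mature JI63, against 1349, 1636 and 879 in mature DAN3130, and MS1 had 369, 302 and 265 in mature JI63, against 524, 31.9 and 424 in mature DAN3130.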

How the data were processed

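Whole kernels of JI63 and DAN3130 were sequenced on DAP 24 and DAP 35 and at maturity, with 3 libraries per group as labelled. The authors removed adapters and poor reads, aligned to B73 AGPv4 with HISAT2 2.1.0 without strand, assembled loci with Cufflinks and Cuffcompare, counted with HTSeq 0.11.2 and deposited a signal table of DESeq-normalized counts. Because strand was not used, overlapping and antisense genes cannot be told apart, and 1220 loci join genes. Of the 77704 loci, 40171 had a B73 gene identifier, and 26258 intron entries were left out. In each library the values were whole multiples of 1 read (100% of values within 0.1%), which gave the recovered reads, 15496827 to 133264978 per library.

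The line difference was fitted with limma 3.58.1 in R 4.3.3 (mean-variance trend, 1 mean per group, 12 libraries) on log2(count + 1) at loci with a mean above 10, two-sided, with Benjamini-Hochberg adjustment and a threshold of 0.05. Fold changes on this scale understate the change of low loci. The procedure was also run on simulated reads with the same dispersion in every group. The real libraries differed in spread, so that run cannot show how the calls behave here, and no conclusion is drawn from it. Alternatives were edgeR 4.0.16 and DESeq2 1.42.0 on recovered reads, other added counts, filters and scalings, thinned reads, all 18 libraries, and each library left out. Replicate numbers in the labels are library codes.

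Members, lists and tests were chosen with earlier results of these data known. Named genes were, for each of 6 patterns, the 5 largest line differences among loci with a gene name, 1 identifier, a mean of at least 100 and no overlap between days in each called line, with the called folate and one-carbon genes and the 2 largest called members of each list with at least 5 tested. Identifiers of markers and clones were not taken as gene names. Some list members were removed as accidental word matches and the histone list was added with values in view, and further genes were named after their values were seen: helicase subunits, PCNA, heat shock, transfer layer, storage and embryo genes among them. Annotation of 9 loci is not reported here.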

Additional observations from a re-analysis of the deposited data

Results flagged for a closer look

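The lines' stage changes differed by the test of the difference itself for 4480 loci. Among them the change passed in JI63 only at 2018, in DAN3130 only at 1514 and in opposite directions at 463. Below, a rise or fall in 1 line only means that the other line's change missed the threshold, not that it was absent. Brittle endosperm2, listed as JI63 only, changed by -0.85 in DAN3130, and math-btb25, listed as DAN3130 only, by 1.78 in JI63. Values for single genes below are line differences on the log2 scale, positive where the JI63 change was the higher.

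Among genes that rose in JI63 and fell in DAN3130, it was 5.66 for beta glucosidase aggregating factor1, 4.31 for phytase1, 3.75 for plasma membrane intrinsic protein2 (Zm00001d019565), 3.51 for minichromosome maintenance4, 3.45 for benzoxazinone synthesis4, 3.21 for minichromosome maintenance5, 3.12 for histone 2B5, 3.11 for minichromosome maintenance7, 2.95 for minichromosome maintenance6 and 2.35 for folylpolyglutamate synthetase2. It was also 1.35 for glycine decarboxylase1 and 1.31 for Ribosomal protein S1-like1. In transcription factor genes it was 2.77 for Homeobox-transcription factor 25 and 1.69 for ABI3-VP1-transcription factor 36.

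Among genes that fell in JI63 and rose in DAN3130, it was -6.18 for math-btb26, -5.04 for math-btb9, -4.74 for heat shock protein18c, -4.40 for glutamine synthetase6, -4.13 for MS1, -2.88 for cytokinin oxidase 4 and -1.99 for pyruvate decarboxylase2. Its value in transcription factor genes was -6.82 for MYB-transcription factor 92, -2.43 for HSF-transcription factor 6 and -2.39 for Zea mays MADS1.

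Among genes that rose in JI63 only, it was 6.60 for sugars will eventually be exported transporter6b, 5.14 for glutathione transferase7, 4.46 for phytase2, 3.15 for gibberellin 20-oxidase3, 3.13 for allene oxide synthesis2, 2.78 for sucrose transporter1, 2.21 for glutathione S-transferase12 and 1.33 for ribosomal protein L30. For transcription factors it was 5.05 for bZIP-transcription factor 79, 4.67 for Aux/IAA-transcription factor 14 and 2.82 for PHD-transcription factor 6.

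Among genes that fell in JI63 only, it was -4.82 for cytokinin oxidase6, -4.56 for alpha expansin1, -4.01 for beta expansin6, -3.84 for flavonol synthase2, -3.56 for PIN-formed protein11, -3.40 for sucrose phosphate synthase1, -2.80 for miniature seed1, -2.73 for opaque endosperm2, -2.36 for phosphate transporter1 and -2.20 for waxy1. It was also -2.16 for stearoyl-acyl-carrier-protein desaturase9, -2.06 for sugars will eventually be exported transporter4c, -1.96 for glutamine synthetase2, -1.68 for brittle endosperm2, -1.67 for alcohol dehydrogenase2, -1.01 for ferredoxin3 and -0.67 for SHMT7-2. In transcription factor genes it was -5.08 for AP2-EREBP-transcription factor 203, -4.08 for bHLH-transcription factor 123, -4.08 for AP2-EREBP-transcription factor 180, -3.78 for NAC-transcription factor 98, -3.70 for MYB-related-transcription factor 29, -3.56 for C2C2-GATA-transcription factor 33, -2.80 for Myb related protein1, -2.20 for MADS-transcription factor 74, -1.68 for ZIM-transcription factor 29 and -1.56 for CCAAT-HAP2-transcription factor 24.

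Among genes that rose in DAN3130 only, it was -4.69 for peroxidase 5, -4.47 for lipid binding protein1, -4.18 for abscisic acid stress ripening3, -3.36 for heat shock protein22, -3.19 for benzoxazinone synthesis13, -2.09 for heat shock protein, 90 kDa, -1.93 for DHNA2, -1.87 for embryo specific protein1, -1.62 for heat shock protein1 and -0.66 for glycine1. Its value in transcription factor genes was -3.58 for WRKY-transcription factor 64, -3.34 for C2C2-GATA-transcription factor 1, -2.85 for NAC-transcription factor43, -2.82 for Homeobox-transcription factor 66 and -2.33 for bZIP-transcription factor 45.

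Among genes that fell in DAN3130 only, it was 5.12 for alpha expansin3, 4.78 for kinesin-related protein2, 4.68 for math-btb25, 4.35 for benzoxazinone synthesis6, 4.20 for rotten ear2, 3.73 for anthocyaninless1, 3.56 for floury3, 3.33 for H4C7, 2.47 for hexokinase5 and 1.92 for minichromosome maintenance2. It was also 1.46 for proliferating cell nuclear antigen2 and 0.86 for ADCL1. For transcription factors it was 5.57 for E2F-DP-transcription factor 213 and 3.29 for NAC-transcription factor 8.

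Among genes that rose in both lines, it was -3.36 for heat shock protein26, -2.58 for dehydrin1 and -2.23 for lea protein group3. In transcription factor genes it was -2.28 for WRKY-transcription factor 87.

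Among genes that fell in both lines, it was -4.38 for embryo surrounding region2, -4.00 for basal endosperm transfer layer9, -3.33 for 22kD alpha zein5, -1.83 for embryo surrounding region6, -1.63 for sugary2 and -1.17 for shrunken2.

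Among genes that passed the test in neither line alone, it was -2.77 for catalase2 and 0.67 for DRTS3. For transcription factors it was -4.87 for MYB-related-transcription factor 111 and 3.89 for bHLH-transcription factor 12.

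Sugars will eventually be exported transporter6b and alpha expansin3 had groups with all libraries at 0, so their fitted values depend on the added count and are no bound on a fold. By edgeR and by DESeq2 on recovered reads, C2C2-GATA-transcription factor 1, bZIP-transcription factor 79, Aux/IAA-transcription factor 14, bHLH-transcription factor 12 and alpha expansin3 were not called, and NAC-transcription factor 8, abscisic acid stress ripening3, embryo surrounding region6 and DRTS3 were not called by edgeR. WRKY-transcription factor 64 lost its call in 10 of the 12 fits that left out 1 library (limma adjusted p = 0.0517 to 0.0957), all but those without DAN3130 DAP 35 library 14 or JI63 DAP 35 library 27. WRKY-transcription factor 87 lost its call in 10 of the 12 fits that left out 1 library (limma adjusted p = 0.058 to 0.102), all but those without DAN3130 DAP 24 library 8 or DAN3130 DAP 35 library 12. C2C2-GATA-transcription factor 1 lost its call in 9 of the 12 fits that left out 1 library (limma adjusted p = 0.051 to 0.0968), all but those without DAN3130 DAP 24 library 8, DAN3130 DAP 35 library 14 or JI63 DAP 35 library 27. C2C2-GATA-transcription factor 33 lost its call in 8 of the 12 fits that left out 1 library (limma adjusted p = 0.0601 to 0.0932), all but those without DAN3130 DAP 24 library 10, DAN3130 DAP 35 library 12, JI63 DAP 24 library 22 or JI63 DAP 35 library 27. bZIP-transcription factor 45 lost its call without DAN3130 DAP 24 library 8, DAN3130 DAP 24 library 10, JI63 DAP 24 library 22 or JI63 DAP 35 library 26 (limma adjusted p = 0.0549 to 0.0604). bZIP-transcription factor 79 lost its call without DAN3130 DAP 24 library 11, JI63 DAP 24 library 24 or JI63 DAP 24 library 25 (limma adjusted p = 0.051 to 0.0554). NAC-transcription factor 8 lost its call in 9 of the 12 fits that left out 1 library (limma adjusted p = 0.061 to 0.0878), all but those without DAN3130 DAP 24 library 10, DAN3130 DAP 35 library 12 or JI63 DAP 35 library 27. Aux/IAA-transcription factor 14 lost its call in 10 of the 12 fits that left out 1 library (limma adjusted p = 0.0615 to 0.107), all but those without DAN3130 DAP 35 library 13 or JI63 DAP 24 library 25. ZIM-transcription factor 29 lost its call in 9 of the 12 fits that left out 1 library (limma adjusted p = 0.0537 to 0.108), all but those without DAN3130 DAP 35 library 14, JI63 DAP 24 library 22 or JI63 DAP 35 library 27. MYB-related-transcription factor 111 lost its call in 7 of the 12 fits that left out 1 library (limma adjusted p = 0.0555 to 0.0767), all but those without DAN3130 DAP 24 library 10, DAN3130 DAP 35 library 14, JI63 DAP 24 library 22, JI63 DAP 35 library 27 or JI63 DAP 35 library 29. bHLH-transcription factor 12 lost its call in 7 of the 12 fits that left out 1 library (limma adjusted p = 0.0653 to 0.089), all but those without DAN3130 DAP 35 library 12, DAN3130 DAP 35 library 13, DAN3130 DAP 35 library 14, JI63 DAP 24 library 24 or JI63 DAP 35 library 27. Anthocyaninless1 lost its call in 8 of the 12 fits that left out 1 library (limma adjusted p = 0.0501 to 0.0884), all but those without DAN3130 DAP 24 library 11, DAN3130 DAP 35 library 14, JI63 DAP 24 library 24 or JI63 DAP 35 library 27. Catalase2 lost its call in 7 of the 12 fits that left out 1 library (limma adjusted p = 0.0515 to 0.0732), all but those without DAN3130 DAP 24 library 11, DAN3130 DAP 35 library 14, JI63 DAP 24 library 22, JI63 DAP 35 library 26 or JI63 DAP 35 library 27. Glutathione S-transferase12 lost its call without DAN3130 DAP 24 library 10, DAN3130 DAP 24 library 11, DAN3130 DAP 35 library 12 or JI63 DAP 24 library 22 (limma adjusted p = 0.052 to 0.0601).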

How the results depend on the processing

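Over the 12 fits that left out 1 library each, the count of line differences ran from 2960 to 5960, that of JI63-only loci from 1477 to 2343, that of DAN3130-only loci from 918 to 2123 and that of opposite loci from 245 to 752. Fitted with all 18 libraries, the counts were 900, 461, 320 and 53. With libraries scaled to equal totals 293 opposite loci were called, and at an unadjusted p under 0.05 with a size of at least 1 there were 236. Of the JI63-only and DAN3130-only loci, 1626 and 1116 had a change under 0.5 in the other line, a limit chosen after seeing the data, as was the count of list members without JI63 DAP 35 library 27. The other planned settings left these counts within 1.5 times. The 105 named genes gave 1446 values under 14 settings, with 138 calls lost and 0 turned in sign, and 71 of the losses were in the fit with all 18 libraries. Leaving out libraries gave 1260 values, with 181 calls lost and 0 turned in sign. In the fit with all 18 libraries the mature kernels shared the estimate of spread. Depth limits low loci, since 1 read stood for a normalized count of 0.173 to 1.61 in the 12 libraries. No paired analysis was possible because the library numbers are codes that no groups share.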

Other observations

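Among all tested loci 16.5% were called, and the shares of the lists here ran from 3.57% of ZIM to 30% of antioxidant and redox genes. Without JI63 DAP 35 library 27 the calls over all tested loci rose to 2831 higher and 3129 lower, and the list counts without it are to be read beside these. Of 65 transporter genes 4 had the higher and 9 the lower change in JI63 (median -0.13), with phosphate transporter1 (-2.36, from -2.12 in JI63 and 0.24 in DAN3130) falling in JI63 only, and the counts were 7 and 14 without JI63 DAP 35 library 27 and 4 and 5 without DAN3130 DAP 24 library 8. Of 69 hormone genes other than those of auxin, 4 were higher and 10 lower (median -0.08), with 1 higher without DAN3130 DAP 24 library 8 or JI63 DAP 24 library 24 and 16 lower without library 27. All 3 called cytokinin oxidases were among the lower ones, cytokinin oxidase6 at -4.82, cytokinin oxidase 4 at -2.88 and cytokinin oxidase1 at -2.69. Cytokinin oxidases that were not called are left out of this count. Of 42 auxin genes 1 was higher and 2 lower (median 0.15), and without library 27 there were 6 lower. Of 31 defence genes 3 were higher and 3 lower (median -0.33), the higher ones being the benzoxazinone synthesis genes 3, 4 and 6 (1.51, 3.45 and 4.35), while benzoxazinone synthesis13 was lower (-3.19), and without library 27 there were 6 lower. Ribosome-inactivating protein1 (-3.01, from -2.24 in JI63 and 0.77 in DAN3130), a seed defence protein, fell in JI63 only.

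Of 26 glutathione S-transferases 4 were higher and 1 lower (median 0.08), with 2 higher without DAN3130 DAP 24 library 10 or DAN3130 DAP 35 library 12, and 5 higher and 4 lower without library 27. Glutathione transferase7, with a line difference of 5.14, had 62.3, 58.6 and 101 in JI63 on DAP 35, against 3.23, 0 and 0 on DAP 24, and 24.1, 12.1 and 41.8 in DAN3130 on DAP 35, against 23.8, 15.1 and 16.1 on DAP 24. Of 20 antioxidant and redox genes 1 was higher and 5 lower (median -0.50), of 36 phenylpropanoid and flavonoid genes 1 and 3 (median -0.27; 2 and 7 without library 27), and of 24 photosynthesis genes 0 and 1 by limma (median -0.26; 2 and 5 at an unadjusted p under 0.05, 1 and 2 by edgeR, 1 and 4 by DESeq2). Flavonol synthase2 (-3.84, from -3.00 in JI63 and 0.85 in DAN3130) fell in JI63 only.

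Of the remaining transcription factor lists, 117 zinc finger genes had 7 higher and 14 lower (median -0.13), 87 bZIP genes 4 and 9 (median -0.19), 111 AP2-EREBP genes 2 and 7 (median 0.16), 89 bHLH genes 2 and 6 (median -0.15), 86 homeobox genes 5 and 5 (median 0.09), and 61 CCAAT and B3 genes 2 and 5 (median 0.24). By limma 72 WRKY genes had 0 higher and 4 lower (median -0.30; 1 and 11 at an unadjusted p under 0.05, 0 and 4 by edgeR, 0 and 10 by DESeq2), and 28 ZIM genes 0 and 1 (median -0.01; 2 and 2 unadjusted, 0 and 1 by edgeR, 0 and 2 by DESeq2). AP2-EREBP-transcription factor 203 (-5.08, from -4.42 in JI63 and 0.66 in DAN3130) and bHLH-transcription factor 123 (-4.08, from -3.68 in JI63 and 0.41 in DAN3130) fell in JI63 only. Homeobox-transcription factor 25 (2.77, from 1.55 in JI63 and -1.22 in DAN3130) and ABI3-VP1-transcription factor 36 (1.69, from 0.95 in JI63 and -0.74 in DAN3130) moved in opposite directions. Without JI63 DAP 35 library 27 the lower calls were 15 for bZIP, 12 for AP2-EREBP, 11 for bHLH and 7 for WRKY genes, and the higher calls were 6 for CCAAT and B3 genes. The lower calls became 4 for bZIP genes without DAN3130 DAP 24 library 8 or library 10, 6 for zinc finger genes without DAN3130 DAP 24 library 8 or JI63 DAP 35 library 26, and 1 for WRKY genes without JI63 DAP 24 library 24 or JI63 DAP 35 library 26. Without the mean-variance trend there were 4 lower bZIP and 9 lower zinc finger genes. The higher calls of the bZIP list became 1 without DAN3130 DAP 24 library 11 and 2 without library 10 of that group, any JI63 DAP 24 library or JI63 DAP 35 library 26. Those of the zinc finger list became 3 without DAN3130 DAP 24 library 11 and 4 without library 8 or library 10 of that group or JI63 DAP 24 library 24, and DESeq2 called 11. The homeobox genes had 2 higher and 2 lower calls without JI63 DAP 35 library 26.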
